A study of Homo sapiens with 12 samples.

Results

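Human H295R cells made to over-express DLK1 (OE) were compared with unmodified cells (WT), gene by gene, in strand-specific libraries of total RNA. H295R is an established adrenocortical carcinoma line that makes steroid hormones. The comparison rests on 8 of the 12 libraries of the series, OE replicates 3 to 6 against WT replicates 3 to 6, and on every gene of the count table that passed a filter on low counts, 15916 genes. The other 4 libraries come from cells in which DLK1 was knocked down (KD). All 3 groups are the same line, harvested at 70% confluence, and differ in the genotype label alone. The labels name no empty vector, clone or construct for OE, and nothing in them says whether each replicate was a culture of its own. The p-values therefore measure the spread between these libraries, which may be technical.

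DLK1 (delta-like non-canonical Notch ligand 1) is a transmembrane protein with EGF-like repeats whose outer part can be shed as a soluble protein. It resembles the Notch ligands but lacks the domain with which they bind Notch, and it is best known for holding preadipocytes and other progenitors in an undifferentiated state. The gene is imprinted and expressed from the paternal copy, and in the adrenal gland it marks cells in or under the capsule.

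DLK1 itself (ENSG00000185559, GRCh38 chr14:100725705-100738224, plus strand) had 3176, 3020, 3350 and 3305 CPM, the count scaled to library size, in OE libraries, against 2796, 2735, 2679 and 2490 CPM in WT libraries. All 4 OE libraries lay above all 4 WT libraries. The means were 3213 ± 148 CPM in OE and 2675 ± 132 CPM in WT (SD, n = 4 each), a 1.20-fold difference. The log2 fold change was 0.26 ± 0.05 (standard error), with an adjusted p of 0.00693. Here and below, log2 fold changes and adjusted p-values come from edgeR's quasi-likelihood test with Benjamini-Hochberg adjustment over every gene in the fit, and a gene is called at an adjusted p under 0.05. Leaving out each OE or WT library in turn gave 0.23 to 0.29. Counts from the cells' own gene and from an introduced copy cannot be told apart in a gene-level table, and RNA does not show how much protein was made or shed.

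Library totals ran from 9303266 to 13797397 counts. Between 7.17% and 7.56% of counts came from the mitochondrial genome in OE, 4.99% to 7.49% in KD and 7.72% to 8.37% in WT, and KD replicate 3 had the 4.99%. All 16 adrenocortical markers had counts, though CYP11B1 and MRAP had too few to be tested. The summed level of the 16 was 4490 to 4650 CPM in OE and 4490 to 4670 CPM in WT. SCARB1 alone had 2106 to 2200 CPM in OE and 2154 to 2233 CPM in WT. Equal sums do not mean equal members, and single markers that differed are given below. The lists of other cell types were low. The sum of 14 chromaffin and neuroendocrine markers was 93.3 to 104 CPM in OE and 88.9 to 99.2 CPM in WT. SYP had 43.5 to 48.6 CPM in OE and 45.2 to 50.8 CPM in WT. CHGB had 29.3 to 35.5 CPM in OE and 29.8 to 32.9 CPM in WT. TH, DBH, PHOX2A and SLC18A1 had no count in any of these 8 libraries. The sum of 11 endothelial markers was 26.2 to 26.8 CPM in OE and 27.2 to 33.8 CPM in WT, and that of 13 immune markers 4.13 to 4.89 CPM in OE and 3.87 to 5.68 CPM in WT. The sum of 13 fibroblast and capsule markers was 175 to 179 CPM in OE and 192 to 212 CPM in WT, most of it from NR2F2, while COL1A2, POSTN and RSPO3 had no count in these 8 libraries.

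Between OE and WT, 796 genes were called, 5.00% of those tested. Of these, 339 were higher in OE (2.13%) and 457 lower (2.87%). With library sizes alone in place of TMM normalisation the split was 487 higher and 369 lower. Most differences were small. The median log2 fold change was 0.30 for genes called higher and -0.29 for genes called lower, against 0.00 over all genes tested, and 77.3% of the higher and 73.3% of the lower genes differed by less than 0.5. At least a 2-fold difference was seen for 20 higher and 42 lower genes. Libraries of the groups did not overlap for 5.71% of all genes on the higher side and 6.09% on the lower side. In bulk RNA, a change in every cell and a change in the share of cells that express a gene cannot be told apart.

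**Figure D1:**
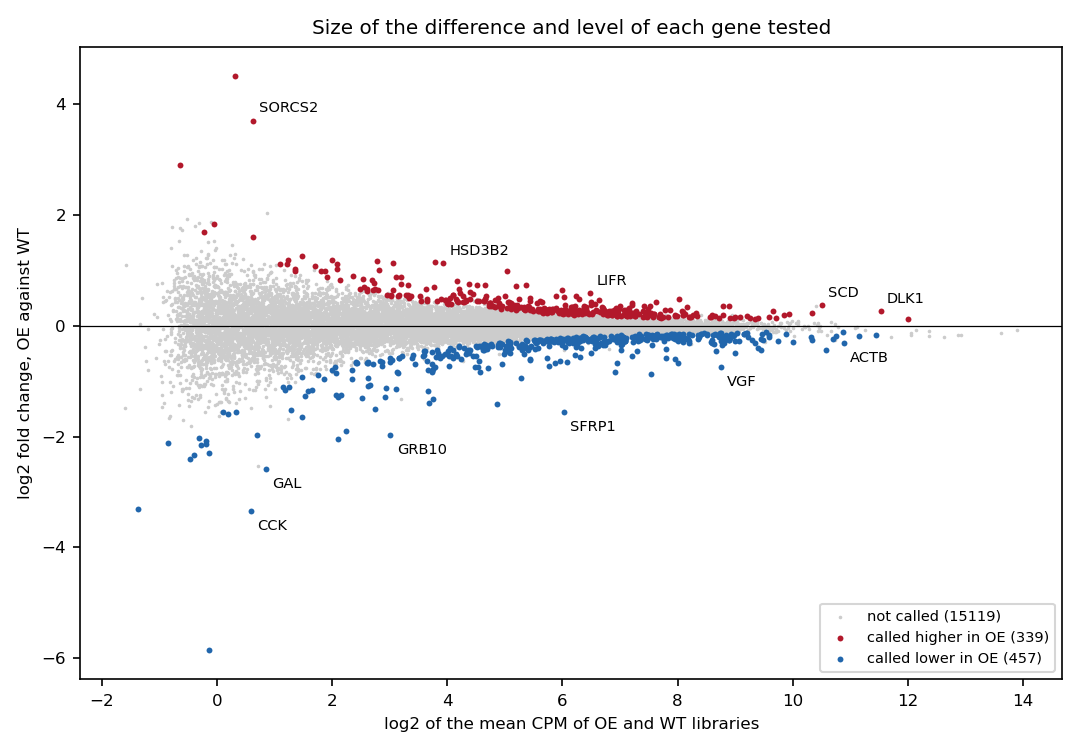
Each point is one of 15915 genes with a count in OE or WT. The x axis is the log2 of its mean CPM over the OE and WT libraries and the y axis its log2 fold change in OE against WT, with genes called higher in red, called lower in blue and not called in grey. Called genes of high level, such as SCD, DLK1 and ACTB, differ by little, while the large fold changes of SORCS2, CCK and GAL are those of genes with low levels.

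Genes were grouped into 42 functional lists of the secretome, the cell surface, transcription factors, signalling and metabolism. The share of lower calls was well above the 2.87% of all genes tested in the actin list, the matrix lists and the integrins. The share of higher calls was well above 2.13% in cholesterol synthesis, and the large lists of zinc finger genes and chromatin modifiers held few calls of either kind. Of the 2920 tested genes that stood in at least 1 list, cell type markers included, 108 were called higher and 151 lower. These are larger shares than over all genes tested. The lists were chosen with earlier results of these data known. Their counts describe the lists and are not a test of them. List counts of 1 to 3 often moved when a single library was left out, and larger counts that did so by more than 1.5 times are given with the library. Beside 0 calls on one side of a list stand the members past an unadjusted p of 0.05 and the DESeq2 calls.

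**Figure D2:**
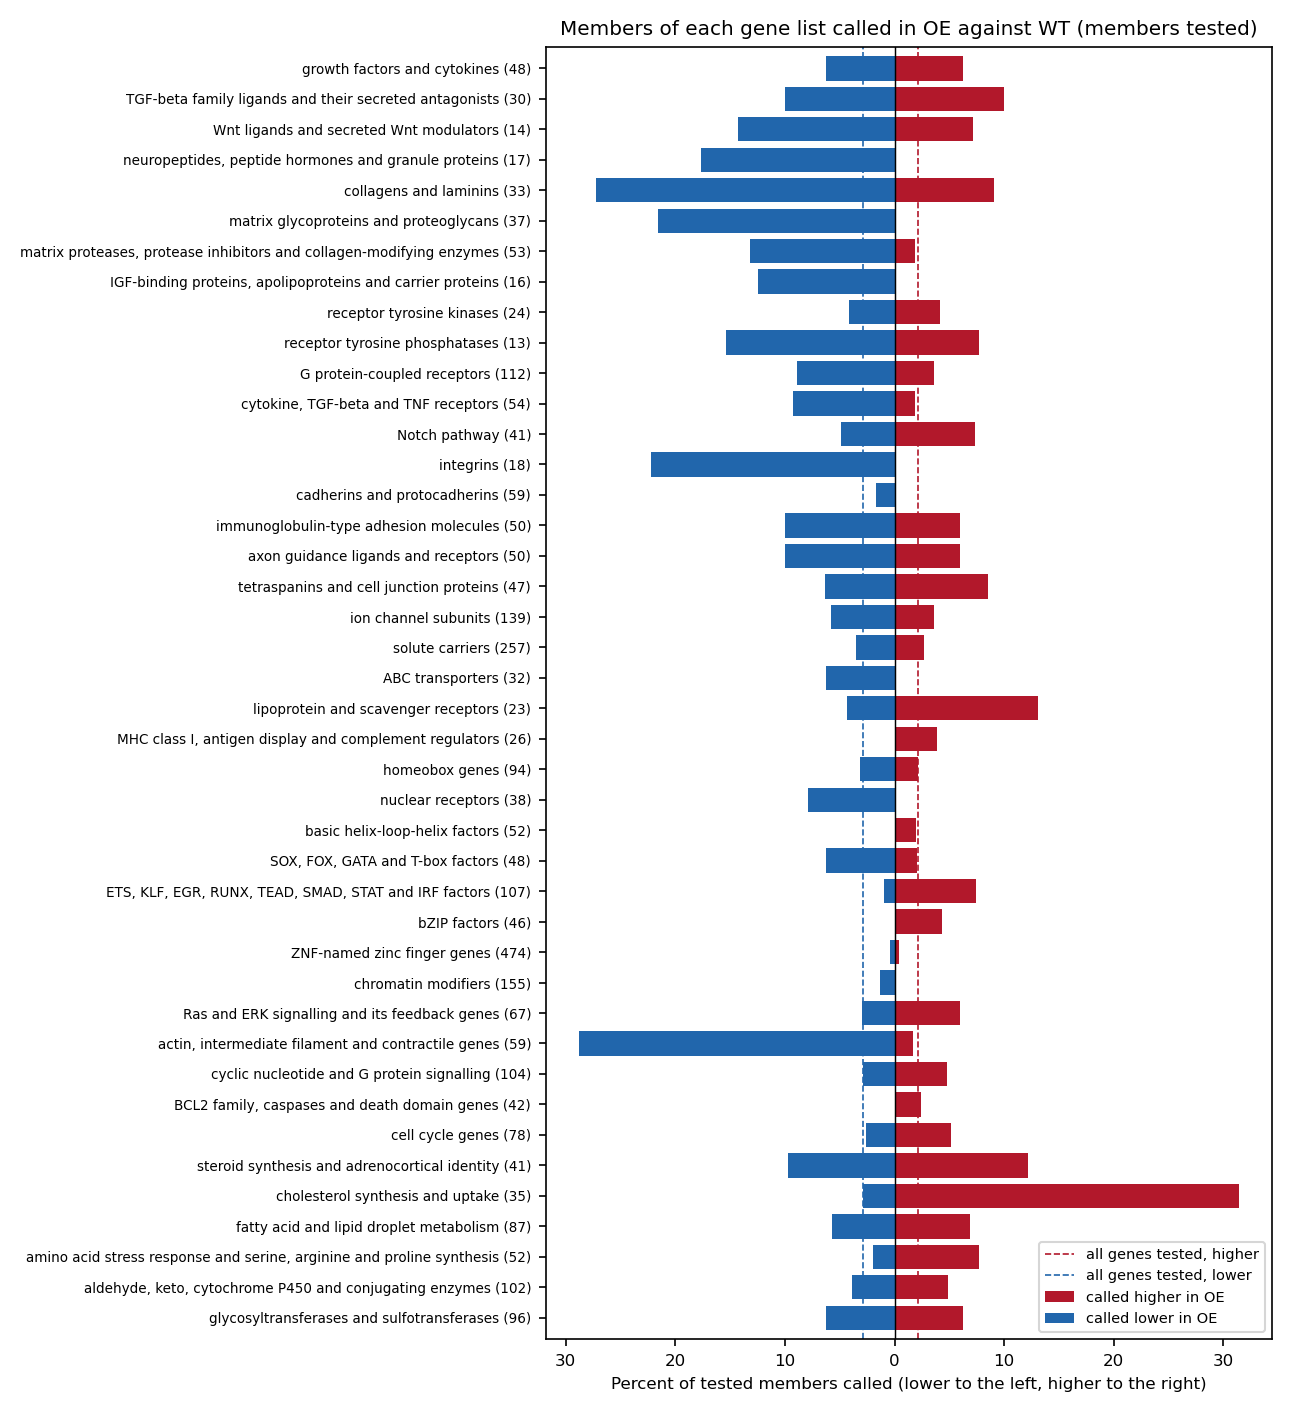
Bars give the percent of each list's tested members called higher (red, to the right) and lower (blue, to the left) in OE against WT, with the number of tested members in brackets. Dashed lines mark all genes tested, 2.13% higher and 2.87% lower. The lower bars are longest for actin and filament genes (17 of 59) and for collagens and laminins (9 of 33), and the higher bar for cholesterol synthesis and uptake (11 of 35).

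Transcripts of beta- and gamma-actin and of a number of proteins that bind actin were lower in OE cells. All levels given are of RNA, and no protein was measured. Of 59 tested actin, intermediate filament and contractile genes, 17 were called lower and 1 higher (TAGLN2), with a median log2 fold change of -0.09. ACTB, which encodes cytoplasmic beta-actin, had 1672, 1696, 1696 and 1715 CPM in OE libraries, against 2128, 2153, 2104 and 2006 CPM in WT libraries. Every OE library was below every WT library, and the log2 fold change was -0.31 ± 0.03 (adjusted p 1.36e-09). ACTG1, the gamma-actin gene, had 1601, 1602, 1633 and 1642 CPM in OE, against 1861, 1869, 1811 and 1807 CPM in WT. Its log2 fold change was smaller, -0.18 ± 0.03 (adjusted p 0.000157). Both actins have processed pseudogenes, so their counts depend in part on how reads with several matches were handled, which is not given in the sources used here.

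Among the proteins that bundle, cross-link or cap actin, FLNA (filamin A, which cross-links filaments and ties them to integrins) had 1263, 1191, 1382 and 1338 CPM in OE and 1808, 1707, 1773 and 1746 CPM in WT. The groups stood far apart, and the log2 fold change was -0.44 ± 0.07 (adjusted p 0.00592). Gelsolin (GSN), which severs and caps filaments, fell by 0.44 on the log2 scale, and fascin (FSCN1), which bundles them in protrusions, fell by 0.27. TPM4, a tropomyosin that coats filaments, fell by 0.23. TMSB10, a thymosin that holds actin monomers, fell by 0.30, and CFL1, cofilin, which disassembles filaments, fell by 0.19. None of these 6 genes overlapped between the groups. VIM, VCL, TPM3 and MYL12A were among the members that were not called, with log2 fold changes of 0.05, 0.00, -0.00 and 0.02. The lamin gene LMNB1 fell by 0.27 and the neuronal filament gene INA by 0.84.

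The actin calls were stable for most members. Of the 17 lower genes, 13 kept their call when any 1 of the 8 libraries was left out. The others were MYLK, lost without 7 of the 8 (adjusted p up to 0.171), ZYX without 4 (up to 0.0986), ACTA2 without 4 (up to 0.129) and PFN1 without WT replicate 5 alone (0.0778). The higher call of TAGLN2 was lost without 5 libraries (adjusted p up to 0.176). The number of lower calls in the list was 13 to 19 over all leave-one-out fits.

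KD against WT shares its WT libraries with OE against WT, so the comparisons are not independent. It called 9.06% of all genes tested, and the contrast of OE with KD called 13.8%. Of the 457 genes called lower in OE against WT, 148 were also called lower in KD against WT and 20 higher. Of the 339 called higher, 69 were also called higher in KD against WT and 35 lower. KD values are given for some of the named genes only. The KD comparison called 5 members of the actin list higher and 4 lower, against 3.84% and 5.22% of all genes. ACTB had a log2 fold change of 0.02 in KD against WT (adjusted p 0.838), FLNA -0.03 (0.853) and GSN -0.07 (0.688). The direct contrast of OE with KD called 23 of the 59 members lower in OE and 3 higher, where 6.55% and 7.27% of all genes tested were called lower and higher. In that contrast ACTB was lower in OE by a log2 fold change of -0.33 (adjusted p 1.43e-10). INA and CNN3, a calponin, were the lower members also called lower in KD against WT, with -0.92 (adjusted p 0.000236) and -0.12 (0.0315). For them the direct contrast of OE with KD gave 0.08 (adjusted p 0.845) and -0.07 (0.229).

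**Figure D3:**
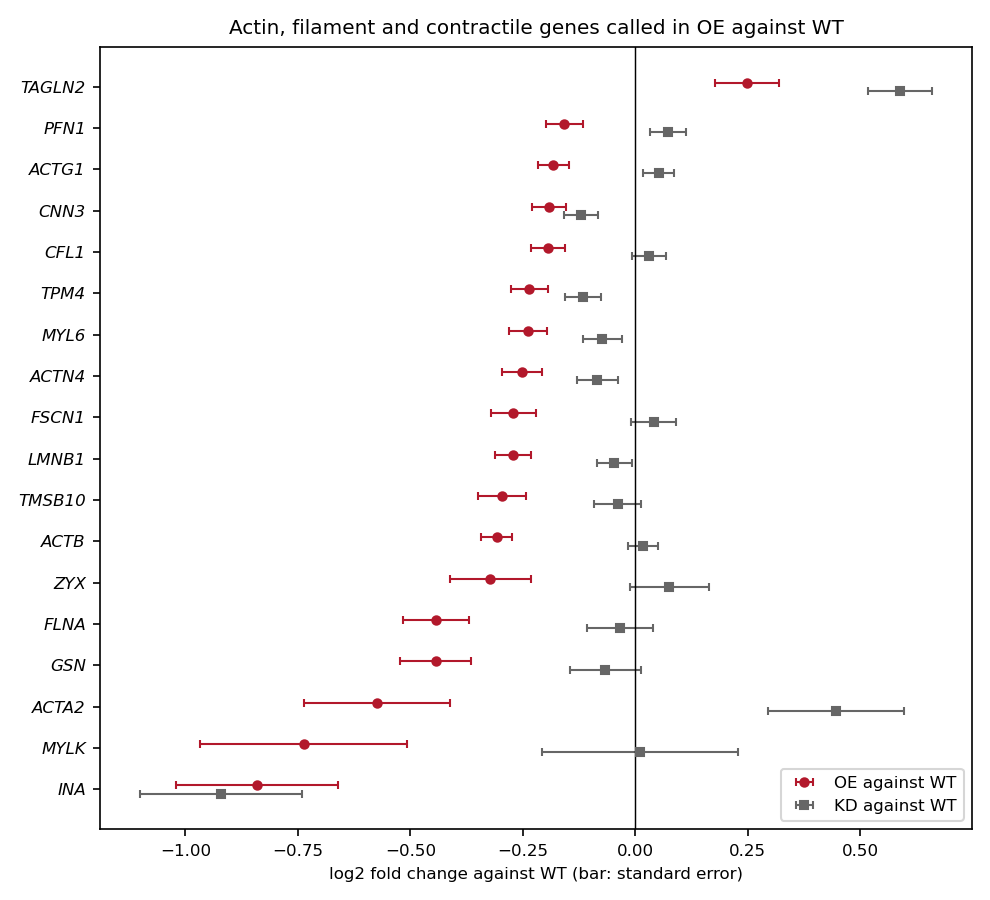
The plot shows the 18 called members of the actin, intermediate filament and contractile list, with the OE against WT log2 fold change on the x axis as red circles and the standard error as a bar. Grey squares are KD against WT, which uses the same WT libraries. All red circles but TAGLN2 lie left of 0, while most grey squares lie near 0.

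Many actin and contractile genes carry CArG boxes, the site bound by serum response factor, close to their start. The factor is switched on through its partner MRTF, which monomeric actin holds in the cytoplasm. RefSeq promoters (GRCh38.p14, 250 bases before the start) were at hand for 15 of the 17 lower genes (not for ACTB and FSCN1). They were at hand for 28 genes of the list that were not called. A CArG box stood in 4 of the 15 (ACTG1, FLNA, TPM4 and MYLK) and in 2 of the 28 (ACTN1 and CNN2). It stood in 1.44% of all 27305 genes with such a promoter. The motif reads the same class of letters on both strands, and a match is not evidence of binding. The 15 genes were chosen by their calls here, and whether serum response factor had a part was not tested. ACTN1 had a log2 fold change of -0.02 (adjusted p 0.909). For CNN2 the log2 fold change was -0.40, with an adjusted p that lay just over the threshold (0.05), and 11 other settings called it. The RefSeq start of MYLK lies 264 kb inside the GENCODE gene, close to its far end, so that window belongs to an internal start and is not shown. The promoters of ACTG1, FLNA and TPM4, picked as lower genes with a box, are shown. Their starts lie 11.0 kb (ACTG1), 0.517 kb (TPM4) and 4 bases (FLNA) inside the widest GENCODE model. Each is printed on its gene's strand up to the base before the start, with the box in capitals. They lie at chr17:81512800-81513049 (minus strand), chrX:154374635-154374884 (minus strand) and chr19:16067288-16067537 (plus strand).
ACTG1: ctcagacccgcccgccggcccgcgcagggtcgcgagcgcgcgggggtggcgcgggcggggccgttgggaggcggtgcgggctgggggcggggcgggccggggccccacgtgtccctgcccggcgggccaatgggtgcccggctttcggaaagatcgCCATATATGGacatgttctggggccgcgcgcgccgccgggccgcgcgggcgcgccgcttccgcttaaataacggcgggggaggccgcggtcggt
FLNA: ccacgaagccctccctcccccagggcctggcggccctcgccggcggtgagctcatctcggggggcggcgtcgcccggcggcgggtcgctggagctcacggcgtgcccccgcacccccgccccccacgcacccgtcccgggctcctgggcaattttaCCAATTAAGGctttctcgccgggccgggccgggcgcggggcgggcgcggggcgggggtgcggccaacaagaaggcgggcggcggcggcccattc
TPM4: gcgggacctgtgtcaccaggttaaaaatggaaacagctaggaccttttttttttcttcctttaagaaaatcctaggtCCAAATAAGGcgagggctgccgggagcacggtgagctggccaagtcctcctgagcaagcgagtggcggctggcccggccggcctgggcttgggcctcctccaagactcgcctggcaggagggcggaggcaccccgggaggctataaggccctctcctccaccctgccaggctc
In ACTG1 and FLNA the box began 94 bases before the start and in TPM4 173 bases before it.

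Most of the basement membrane and matrix genes that were called were lower in OE. Of 33 tested collagen and laminin genes, 9 were called lower and 3 higher, and of 37 matrix glycoprotein and proteoglycan genes 8 lower and 0 higher by edgeR (3 at the unadjusted threshold, 0 by DESeq2). NID1, nidogen, which links the laminin and collagen IV networks, had 135, 128, 132 and 135 CPM in OE libraries, against 243, 235, 238 and 248 CPM in WT libraries. OE was about 0.550 of WT, with no overlap, and the log2 fold change was -0.86 ± 0.05 (adjusted p 3.07e-21). KD cells had 243 ± 8.36 CPM, with a log2 fold change of 0.01 against WT (adjusted p 0.909), and OE was lower than KD (-0.88, adjusted p 8.01e-22). KD against WT called 6 collagen and laminin genes lower and 2 higher, and 6 matrix glycoprotein and proteoglycan genes lower and 4 higher. LAMC3, a laminin gamma chain, fell by 0.58, and COL15A1, a basement membrane collagen, fell by 0.24. The secreted proteoglycan SPOCK1 fell by 0.30. SPARC, a collagen-binding glycoprotein, was abundant, at 2089 to 2170 CPM in OE and 2336 to 2433 CPM in WT, and fell by 0.18. In KD against WT, SPOCK1 had -0.51 (adjusted p 1.15e-14) and SPARC -0.24 (1.82e-07), while LAMC3 had -0.01 (0.979). SPOCK1 was higher in OE than in KD (0.21, adjusted p 0.000109), and SPARC was not called in that contrast (0.06, 0.201). COL22A1, a collagen of tissue junctions, rose by 0.90 on the log2 scale from a low level (5.25 to 7.59 CPM in OE, 2.74 to 4.52 CPM in WT).

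The chains of collagen IV, COL4A1 and COL4A2, fell side by side. COL4A1 had 192, 201, 207 and 197 CPM in OE and 320, 316, 308 and 324 CPM in WT (log2 fold change -0.67 ± 0.04, adjusted p 1.63e-17). COL4A2 had 404, 401, 453 and 432 CPM in OE and 611, 614, 581 and 583 CPM in WT (-0.50 ± 0.04, adjusted p 4.12e-11). The genes start head to head and are known to share a promoter, so the 126 bases between their RefSeq starts (chr13:110307158-110307283, GRCh38.p14, plus strand, reading towards COL4A2) are shown.
COL4A1 to COL4A2: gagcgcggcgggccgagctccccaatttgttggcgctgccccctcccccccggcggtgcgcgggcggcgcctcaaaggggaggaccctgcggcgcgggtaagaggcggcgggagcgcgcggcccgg
The GENCODE models of the genes overlap at this end on opposite strands, and the strand setting of the counting is not given. The neighbourhood was also lower: the 10 tested genes on either side had a median log2 fold change of -0.24 at COL4A1 and -0.19 at COL4A2. Chromosome 13 as a whole had a median of -0.09 over 284 genes, with 27 called lower and 4 higher.

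Other stretches of neighbours moved together as well. A neighbour median of -0.15 or lower was found for 43 of the 450 genes called lower that had one, against 290 of 15294 genes tested. For genes called higher, 2 of 329 had a neighbour median of 0.15 or more, against 83 of 15294. CLU (clusterin, a secreted chaperone) fell by 0.61 with a neighbour median of -0.24, BMP1, the protease that trims procollagens, by 0.51 with -0.27, and LPL, lipoprotein lipase, by 1.25 with -0.20, all on chromosome 8. In KD against WT, CLU had -0.225 (adjusted p 0.000325), BMP1 -0.35 (0.0375) and LPL -1.37 (9.29e-05). OE against KD gave -0.38 for CLU (adjusted p 5.36e-09), -0.16 for BMP1 (0.418) and 0.12 for LPL (0.841). Whether copy number differed between the cultures was not tested. In the same stretch of chromosome 13, with a neighbour median of -0.24 like that of COL4A1, the long non-coding RNA gene ENSG00000275216 (chr13:109269634-109278512) went the other way, with 32, 20, 33 and 30 counts in OE libraries and 2, 0, 2 and 0 counts in WT libraries. It had 0 counts in all KD libraries. Its fitted log2 fold change in OE against WT was 4.51 ± 0.65 (adjusted p 1.78e-06), and with 4 counts in WT its size is uncertain.

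Secreted growth factors changed in both directions. Of 48 tested growth factor and cytokine genes, 3 were higher and 3 lower. PDGFD, a ligand of the PDGF beta receptor, had 117, 114, 111 and 117 CPM in OE and 77.0, 89.4, 77.8 and 88.1 CPM in WT. No OE library came down to the WT values (log2 fold change 0.47 ± 0.06, adjusted p 8.32e-08). CCN3, a matricellular protein, rose by 0.34, with 307 to 338 CPM in OE and 243 to 264 CPM in WT. FGF9 rose by 0.88, with 1 OE library, replicate 6 at 7.69 CPM, inside the WT range of 5.07 to 7.95 CPM. TNFSF4, the OX40 ligand, fell by 0.66. VEGFA, with the most counts in this list after CCN3, was not called (-0.03). In KD against WT, FGF9 also rose (0.835, adjusted p 0.000525), as did CCN3 (0.16, 0.0123). PDGFD and TNFSF4 were not called there (-0.11, adjusted p 0.293, and 0.235, 0.406). OE against KD gave 0.045 for FGF9 (adjusted p 0.905).

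The TGF-beta family list had 3 higher and 3 lower of 30. FSTL1, a follistatin-like secreted protein, had 181, 170, 168 and 159 CPM in OE and 127, 131, 126 and 126 CPM in WT, well apart (log2 fold change 0.41 ± 0.05). LTBP1, which stores latent TGF-beta in the matrix, fell by 0.26, and TWSG1, which modulates BMPs, fell by 0.25. Of 14 Wnt genes, WNT4, an adrenal and gonadal Wnt ligand, fell by 0.21. SFRP1, a secreted Wnt antagonist, had 28.2, 36.8, 31.9 and 35.0 CPM in OE and 98.2, 94.9, 102 and 92.8 CPM in WT, and fell by 1.56. SFRP1 was also lower in KD (-1.05 against WT, adjusted p 2.29e-16), and FSTL1 was also higher there (0.17, adjusted p 0.0202). TWSG1 and WNT4 were lower in KD too (-0.29, adjusted p 3.4e-07, and -0.27, 0.00015, against WT), and LTBP1 was not called (-0.095, 0.15). OE against KD gave 0.04 for TWSG1 (adjusted p 0.617) and 0.06 for WNT4 (0.509). The neighbours of SFRP1 on chromosome 8 had a median of -0.16.

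Some neuropeptides and genes of the granule machinery were lower in OE. Of 17 tested members, 3 were called lower (CCK, GAL and VGF) and 0 higher by edgeR, by DESeq2 or at the unadjusted threshold. VGF, a granule peptide precursor, had 305, 302, 335 and 342 CPM in OE and 561, 570, 509 and 522 CPM in WT. The groups were widely separated (log2 fold change -0.75 ± 0.07, adjusted p 1.73e-05). CCK, cholecystokinin, had 0, 3, 2 and 8 counts in OE and 46, 29, 26 and 16 in WT, and fell by 3.34. CPE, carboxypeptidase E, which trims prohormones, fell by 1.52, at 1.11 to 1.46 CPM in OE and 3.35 to 4.07 CPM in WT. PTPRN, a membrane protein of dense-core granules, had 40.5, 46.5, 44.0 and 48.5 CPM in OE and 73.3, 75.3, 70.0 and 67.9 CPM in WT (-0.67 ± 0.07, adjusted p 5.6e-10). KD against WT gave 0.07 for VGF (adjusted p 0.661) and -0.13 for PTPRN (0.277), and both were lower in OE than in KD (-0.82, adjusted p 3.06e-06, and -0.54, adjusted p 6.9e-08). CCK was lower in KD too (-1.91 against WT, adjusted p 0.00239), and OE against KD gave -1.43 (0.0982). None of the 7 tested chromaffin and neuroendocrine markers, CHGA, CHGB and SYP among them, was called in OE against WT (edgeR), with 1 higher at the unadjusted threshold and 0 called by DESeq2.

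Several protease inhibitors fell. The list of matrix proteases, inhibitors and collagen-modifying enzymes had 7 lower and 1 higher of 53, with a median of 0.01. SERPINE2, which blocks thrombin and plasminogen activators, fell by 1.13 (3.63 to 5.53 CPM in OE, 9.56 to 11.8 CPM in WT). SERPINA5, the protein C inhibitor, had 345, 352, 356 and 355 CPM in OE and 427, 453, 447 and 434 CPM in WT, and fell by 0.32. TIMP1 and TIMP2, inhibitors of matrix metalloproteinases, fell by 0.25 and 0.34. TIMP3, at 938 to 1017 CPM in OE and 903 to 948 CPM in WT, was not called. SPINT1, an inhibitor of HGF activator, was the higher member (1.12 ± 0.23). In KD against WT, TIMP2 had -0.33 (adjusted p 2.88e-05) and SPINT1 0.955 (0.0035), while TIMP1, SERPINE2 and SERPINA5 were not called. OE against KD gave -0.01 for TIMP2 (adjusted p 0.92) and 0.16 for SPINT1 (0.697). Among 16 binding and carrier proteins, IGFBP3 fell by 0.44 as well as CLU, and 0 were higher by edgeR (1 at the unadjusted threshold, 0 by DESeq2).

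**Figure D4:**
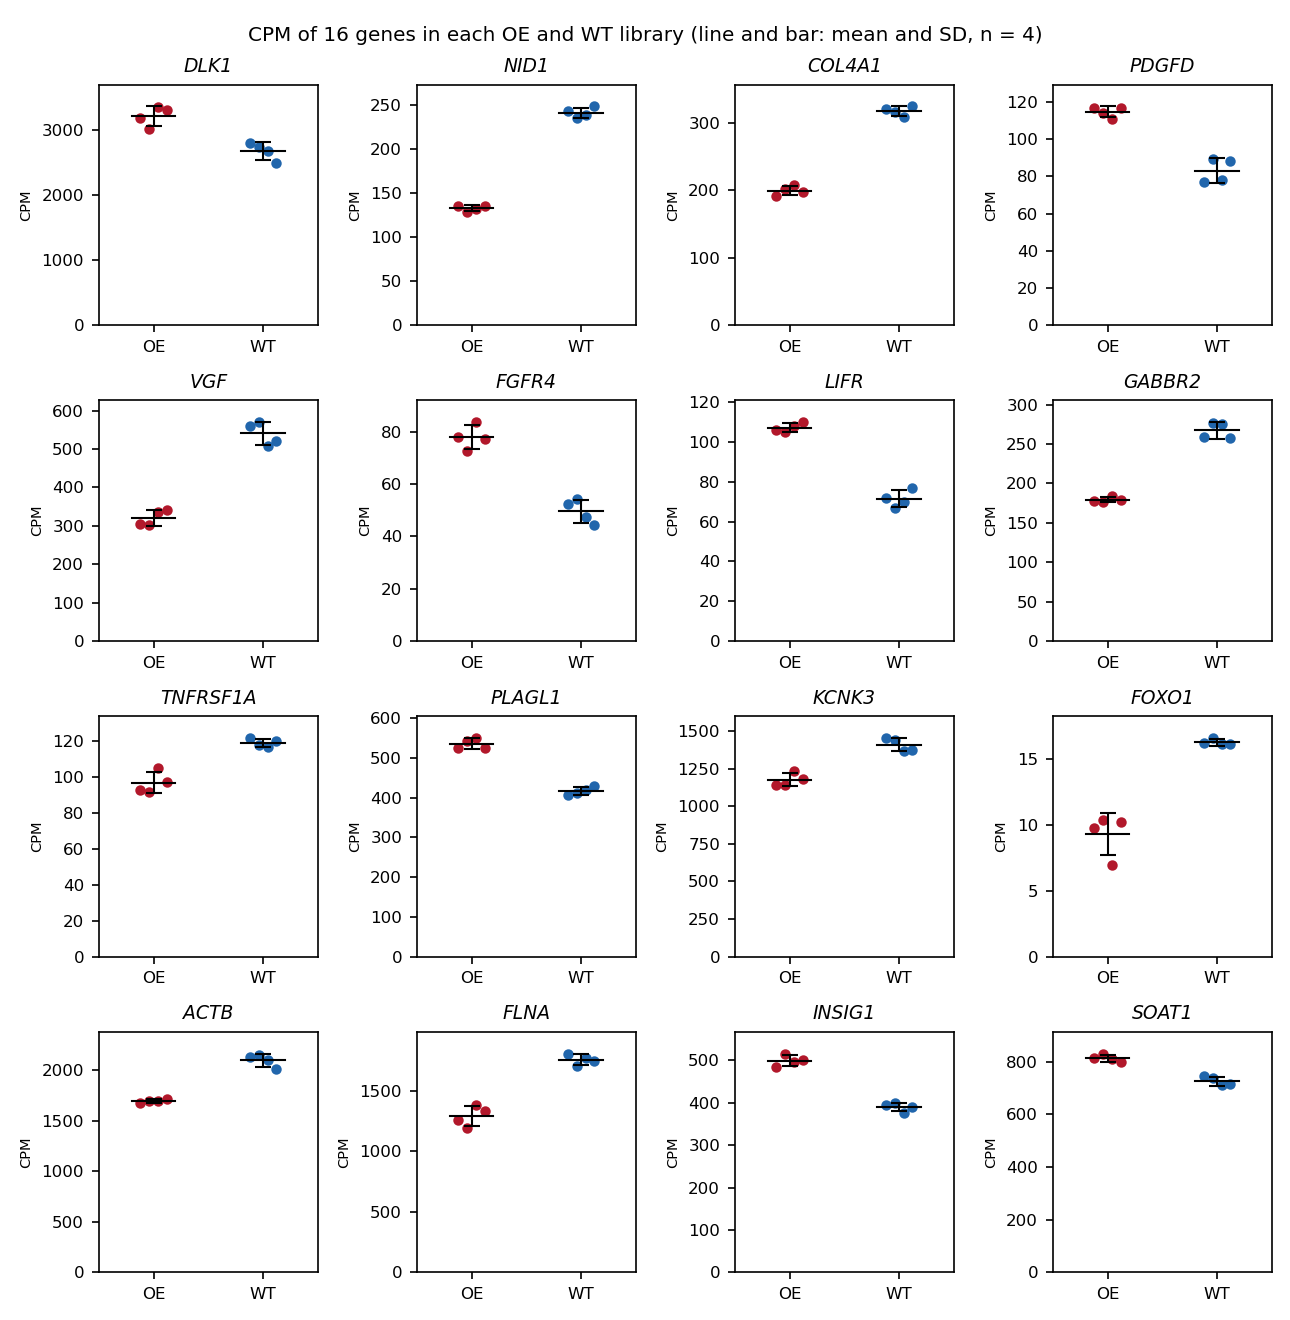
CPM of 16 genes in each library, OE in red on the left and WT in blue on the right, each axis starting at 0. The black line is the mean and the bar the SD of 4 libraries. All 16 were picked for display from called genes. In none of them do OE and WT libraries overlap, which follows in part from that choice. Over all genes tested, libraries did not overlap for 5.71% on the higher side and 6.09% on the lower side.

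At the cell surface, receptors of several families changed, most by less than 2-fold. Of 24 tested receptor tyrosine kinases, FGFR4, which binds FGF19 with a co-receptor, was the one called higher. It had 78.0, 72.7, 83.6 and 77.1 CPM in OE and 52.2, 54.2, 47.5 and 44.4 CPM in WT, without overlap (log2 fold change 0.65 ± 0.07, adjusted p 4.83e-09). KD against WT gave 0.12 (adjusted p 0.385), and OE was higher than KD by 0.53 (2.17e-07). DDR1, the kinase with most counts, had 323 to 367 CPM in OE and 328 to 378 CPM in WT. Of 13 receptor tyrosine phosphatases, PTPRZ1, a receptor of pleiotrophin, rose by 0.53, and PTPRG fell by 0.63. PTPRZ1 was lower in KD (-0.49 against WT, adjusted p 0.0024).

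The interleukin 6 family receptors split. LIFR, the receptor of leukaemia inhibitory factor, had 106, 105, 108 and 110 CPM in OE and 71.9, 66.7, 70.0 and 76.9 CPM in WT. The lowest OE library stood far above the highest WT library (0.59 ± 0.06, adjusted p 6.6e-10). OSMR, the oncostatin M receptor, had 88.0, 78.5, 79.2 and 83.0 CPM in OE and 107, 98.8, 116 and 111 CPM in WT, and fell by 0.40. Their shared partner IL6ST (gp130) had 212 to 241 CPM in OE and 226 to 241 CPM in WT and was not called. KD against WT gave -0.39 for LIFR (adjusted p 1.68e-05), and LIFR was higher in OE than in KD by 0.98 (6.25e-18). OSMR had -0.12 in KD against WT (adjusted p 0.227). Of 54 cytokine, TGF-beta and TNF receptors, 1 was higher and 5 lower, among them TNFRSF1A, the main TNF receptor, which fell by 0.30, and IL7R, which fell by 1.17 from low counts.

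Of 112 G protein-coupled receptors, 10 were called lower and 4 higher, and 6 were lower without OE replicate 3, OE replicate 4 or WT replicate 3. GABBR2, a subunit of the GABA B receptor, had 178, 176, 184 and 179 CPM in OE and 259, 277, 276 and 258 CPM in WT. OE libraries spanned a narrow range under all WT libraries (log2 fold change -0.58 ± 0.04, adjusted p 2.55e-14). TSHR, the thyrotropin receptor, fell by 1.18, EDNRA, the endothelin A receptor, by 1.51, and ADGRG1, an adhesion receptor, by 1.14. In KD against WT, TSHR also had a negative fold change (-1.03) while ADGRG1 had a positive one (1.13), and ADGRG1 was lower in OE than in KD by 2.27 (adjusted p 1.66e-17). The higher receptors included CXCR4, a chemokine receptor (0.78), ADRA2A, an alpha-2 adrenergic receptor (0.41), and ADGRG2, an adhesion receptor (0.46). In KD against WT, ADGRG2 had 0.415 (adjusted p 0.003) and EDNRA -0.61 (0.0155). OE against KD gave 0.04 for ADGRG2 (adjusted p 0.848), -0.89 for EDNRA (0.000547) and -0.15 for TSHR (0.613). CXCR4, ADRA2A and GABBR2 were not called in KD against WT.

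Of 41 Notch pathway genes, 3 were higher and 2 lower. NOTCH3 had 9.83, 4.56, 8.38 and 8.05 CPM in OE and 18.6, 21.6, 17.1 and 19.8 CPM in WT, and fell by 1.32 ± 0.16. In KD against WT its log2 fold change was -1.24, and OE against KD gave -0.09 (adjusted p 0.81). DNER, an atypical Notch ligand, fell by 0.30. RBPJ, the DNA-binding protein of the pathway, rose by 0.28, with 148 to 155 CPM in OE and 114 to 143 CPM in WT. MIB1, the ubiquitin ligase that readies Notch ligands, rose by 0.38, and APH1B, a subunit of gamma-secretase, by 0.44. In KD against WT, RBPJ, MIB1 and APH1B had -0.02, -0.04 and -0.07. Each was higher in OE than in KD (0.30, 0.42 and 0.51). DNER was lower in KD too (-0.39 against WT, adjusted p 0.000114), and OE against KD gave 0.09 (0.507). NOTCH2, the receptor with most counts, had 235 to 255 CPM in OE and 220 to 271 CPM in WT.

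Some integrin subunits fell. Of 18 tested, 4 were called lower and 0 higher by edgeR (1 at the unadjusted threshold, 0 by DESeq2), and the median log2 fold change was -0.12. ITGA7, a laminin receptor subunit, had 566, 542, 612 and 620 CPM in OE and 719, 723, 717 and 731 CPM in WT, without overlap (-0.30 ± 0.04, adjusted p 3.77e-08), and its neighbours had a median of -0.19. ITGA5, the fibronectin receptor subunit, fell by 0.42 (35.4 to 42.8 CPM in OE, 50.4 to 58.0 CPM in WT). ITGB1, the common beta subunit, had a log2 fold change of -0.14 (adjusted p 0.0131), and its call was lost without OE replicate 6 (-0.13, adjusted p 0.0614), which left 2 integrins called. KD against WT also called 4 integrins lower. ITGB1 had -0.22 there (adjusted p 2.89e-05), ITGA7 -0.16 (0.00263) and ITGA5 0.11 (0.421). OE against KD gave 0.07 for ITGB1 (adjusted p 0.187), -0.14 for ITGA7 (0.00565) and -0.53 for ITGA5 (4.81e-07).

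Adhesion molecules of the immunoglobulin type moved both ways, with 3 higher and 5 lower of 50 (3 lower without OE replicate 6). CHL1 and NRCAM, L1-family molecules of neurites, rose by 0.36 and 0.22, and CDON, a co-receptor of Hedgehog ligands, by 0.40. CHL1 had 204, 194, 185 and 188 CPM in OE and 150, 141, 143 and 165 CPM in WT. NCAM1 fell by 0.22 and CNTN1, contactin, by 1.65. NRCAM went the other way in KD (-0.27 against WT, adjusted p 6.26e-05). NCAM1 was lower in KD too (-0.15 against WT, adjusted p 0.0152), and OE against KD gave -0.08 (0.234). CHL1, CDON and CNTN1 were not called in KD against WT. Of 59 cadherins and protocadherins edgeR called CDH12 alone, which fell by 0.31, and DESeq2 called 2 lower. On the higher side there were 0 by either tool and 2 at the unadjusted threshold, and N-cadherin (CDH2) was not called (-0.04). The guidance list held 3 higher and 5 lower of 50 (2 lower without OE replicate 5 or WT replicate 3, and 3 without any of OE replicates 3, 4 and 6, WT replicates 4 and 5 and KD replicate 6), with NRP1, a semaphorin and VEGF co-receptor, down by 0.54, and SEMA7A and its receptor PLXNC1 up by 0.28 and 0.27. SEMA7A had 84.9, 84.1, 91.5 and 85.4 CPM in OE and 73.9, 76.4, 68.7 and 66.8 CPM in WT, and PLXNC1 119 to 126 CPM in OE and 99.7 to 105 CPM in WT. In KD against WT, NRP1 had -0.68 (adjusted p 1.49e-05), SEMA7A 0.26 (0.0038) and PLXNC1 0.105 (0.262). OE against KD gave 0.14 for NRP1 (adjusted p 0.491), 0.02 for SEMA7A (0.915) and 0.17 for PLXNC1 (0.0279). Tetraspanins and junction genes had 4 higher and 3 lower of 47, with 2 higher without OE replicate 4, 5 or 6 or WT replicate 3. The gap junction gene GJA1 fell by 0.44, and CD63, an endosomal tetraspanin, by 0.30. CD63 had 929, 932, 894 and 938 CPM in OE and 1162, 1130, 1154 and 1093 CPM in WT. In KD against WT, CD63 had -0.185 (adjusted p 0.000238) and GJA1 -0.22 (0.0832). OE against KD gave -0.11 for CD63 (adjusted p 0.0272).

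Ion channels gave 5 higher and 8 lower of 139, with 3 higher without OE replicate 5 or 6 or WT replicate 4. KCNK3 (TASK-1), a background potassium channel of adrenocortical cells, was abundant, with 1142, 1144, 1238 and 1183 CPM in OE and 1455, 1440, 1371 and 1373 CPM in WT. No library of one group entered the range of the other, and the log2 fold change was -0.26 ± 0.04 (adjusted p 5.54e-05). KD against WT gave 0.03 (adjusted p 0.735), and OE was lower than KD by 0.29 (3.72e-06). CACNA1B, an N-type calcium channel, fell by 0.82 and GABRG1, a GABA A receptor subunit, by 0.39. MCOLN3, an endolysosomal cation channel, rose by 0.34. KD against WT called 13 channel genes lower and 5 higher. CACNA1B and GABRG1 had -1.60 (adjusted p 1.93e-07) and -0.86 (1.75e-09) there, and both were higher in OE than in KD (0.78, adjusted p 0.00545, and 0.47, adjusted p 0.000315). MCOLN3 was higher in KD too (0.29 against WT, adjusted p 0.00185).

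Among 257 solute carriers, 7 were higher and 9 lower, near the background of all genes, and 13 were higher without KD replicate 3. SLC30A1, the zinc exporter of the plasma membrane, rose by 0.42, while SLC39A10, a zinc importer, fell by 0.34. SLC30A1 had 98.8, 110, 106 and 98.1 CPM in OE and 80.6, 77.1, 67.5 and 84.1 CPM in WT, and SLC39A10 had 94.7, 96.4, 98.4 and 88.8 CPM in OE and 119, 124, 115 and 120 CPM in WT. SLC16A9, a carnitine and monocarboxylate carrier, rose by 1.13. In KD against WT, SLC39A10 had -0.49 (adjusted p 3.85e-09), SLC30A1 0.22 (0.0192) and SLC16A9 0.72 (0.00563). OE against KD gave 0.16 for SLC39A10 (adjusted p 0.0574), 0.20 for SLC30A1 (0.0247) and 0.415 for SLC16A9 (0.0855). ABC transporters had 0 higher by edgeR (1 at the unadjusted threshold, 0 by DESeq2) and 2 lower of 32, ABCA5 among them. ABCA5 was lower in KD too (-0.38 against WT, adjusted p 0.00499), and OE against KD gave -0.24 (0.096). The drug exporter ABCB1, at 524 to 561 CPM in OE and 528 to 556 CPM in WT, was not called in OE against WT.

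Lipoprotein and scavenger receptors had 3 higher and 1 lower of 23. SORCS2, a sorting receptor that binds proneurotrophins, gave the largest fold change of the protein-coding genes called higher. It had 27, 21, 42 and 53 counts in OE libraries, 1, 6, 2 and 0 counts in WT libraries, and means of 2.89 ± 0.888 CPM in OE and 0.209 ± 0.253 CPM in WT (SD, n = 4 each). Its fitted log2 fold change was 3.70 ± 0.56 (adjusted p 4.27e-06), and with so few WT counts its size is uncertain. KD libraries averaged 0.221 CPM, and OE against KD gave 3.64 (adjusted p 1.09e-06). CD36, a fatty acid and lipoprotein scavenger receptor, rose by 0.27. CD46, a complement regulator, rose by 0.25 and was the one called by edgeR of 26 antigen display and complement genes (DESeq2 called 2 higher). On the lower side of that list there were 0 by either tool and 1 at the unadjusted threshold. CD36 was higher still in KD (1.18 against WT), so it was lower in OE than in KD by 0.91 (adjusted p 3.47e-17).

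Most transcription factor families held few called genes, and differences between families were not tested. The share called is given for each family. It was 8.4% in the list of ETS, KLF and related factors, 8.3% for SOX, FOX, GATA and T-box factors, 7.9% for nuclear receptors, 5.3% for homeobox genes, 4.3% for bZIP, 1.9% for basic helix-loop-helix and 0.8% for ZNF-named genes, against 5.00% of all genes tested. Of 107 ETS, KLF, EGR, RUNX, TEAD, SMAD, STAT and IRF factors, 8 were higher and 1 lower, with 5 higher without OE replicate 3 or WT replicate 5 or 6. ETV4 and ETV5, ETS factors induced by ERK signalling, rose by 1.01 and 0.36. In KD against WT, ETV4 also rose (1.15, adjusted p 5.01e-06), and ETV5 had 0.14 (0.198). OE against KD gave -0.13 for ETV4 (adjusted p 0.676) and 0.22 for ETV5 (0.0135). ETV5 had 83.8, 76.4, 86.1 and 87.4 CPM in OE and 69.8, 66.4, 61.0 and 61.9 CPM in WT, without overlap. SMAD3, which carries TGF-beta signals, rose by 0.28, KLF3, a repressor, by 0.27, and IRF1, an interferon response factor, was the lower member (-0.54). PLAGL1 is an imprinted zinc finger factor. It had 525, 543, 550 and 525 CPM in OE and 406, 412, 420 and 429 CPM in WT (0.36 ± 0.04, adjusted p 9.21e-08), and in KD against WT it had -0.27 (adjusted p 2.56e-05).

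Of 46 bZIP factors 2 were higher and 0 lower by edgeR (2 at the unadjusted threshold, 0 by DESeq2). Of 52 basic helix-loop-helix factors 1 was higher and 0 lower by edgeR (2 at the unadjusted threshold, 1 by DESeq2). Of 48 SOX, FOX, GATA and T-box factors, 1 was higher and 3 lower. FOXO1, a target of insulin and AKT signalling, had 9.73, 10.4, 6.96 and 10.2 CPM in OE and 16.2, 16.6, 16.1 and 16.1 CPM in WT, and fell by 0.80. KD against WT gave 0.07 for FOXO1 (adjusted p 0.822), and OE was lower than KD by 0.87 (2.41e-06). TBX3, the member of this list with most counts, was not called (0.08).

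Nuclear receptors had 0 higher by edgeR (5 at the unadjusted threshold, 0 by DESeq2) and 3 lower of 38. ESR2, oestrogen receptor beta, had 13.7 to 17.6 CPM in OE and 20.2 to 24.6 CPM in WT, and fell by 0.60. NR4A3, an orphan receptor induced by trophic stimuli, fell by 0.39, and NR2F2 (COUP-TFII), a factor of capsular and other mesenchymal cells, by 0.20. NR5A1 (SF-1), which sets adrenocortical identity, had 540, 530, 586 and 564 CPM in OE and 571, 567, 545 and 520 CPM in WT, and was not called (0.01, adjusted p 0.947). Of 94 homeobox genes 2 were higher and 3 lower. DLX1 rose by 0.98, at 4.58 to 5.08 CPM in OE and 2.18 to 2.76 CPM in WT. It was higher in KD too (0.95 against WT, adjusted p 0.00481), and OE against KD gave 0.03 (0.953). The 474 ZNF-named genes gave 2 higher and 2 lower, and the 155 chromatin modifiers 0 higher by edgeR (14 at the unadjusted threshold, 1 by DESeq2) and 2 lower, one of them CHD3, a subunit of the NuRD complex (-0.19). ZNF385A, a regulator of p53 target choice, fell by 0.27 and ZNF703, a repressor, by 0.27. HIF1A and NFE2L2, factors with high counts, were not called (-0.01 and 0.02).

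The Ras and ERK signalling list had 4 higher and 2 lower of 67. RASGRF1, an exchange factor for Ras, had 23.4, 21.9, 25.5 and 20.5 CPM in OE and 13.9, 10.3, 14.6 and 13.3 CPM in WT (0.81 ± 0.13, adjusted p 1.36e-05). RASGRP3, another exchange factor, had 1.34 to 2.24 CPM in OE and 6.19 to 7.62 CPM in WT, and fell by 2.04. GRB10, an imprinted adaptor that restrains insulin and IGF receptors, had 3.44, 3.62, 2.85 and 3.26 CPM in OE and 14.3, 12.2, 13.5 and 11.6 CPM in WT, and fell by 1.97. The KD against WT values were 0.07 for RASGRF1 (adjusted p 0.826), -0.03 for RASGRP3 (0.955) and -1.48 for GRB10 (4.65e-09). The kinase PRKCD rose by 0.51, with 76.8, 76.3, 80.2 and 73.5 CPM in OE and 54.1, 53.9, 56.4 and 50.2 CPM in WT. Cyclic nucleotide and G protein genes had 5 higher and 3 lower of 104, with 2 higher without OE replicate 4 or WT replicate 3 and 3 without OE or WT replicate 6. RGS5, which shortens G protein signals, fell by 0.95, and GNG11, a G protein gamma subunit, by 0.38.

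S100A6, a calcium-binding protein, had 41.1, 51.2, 40.5 and 42.9 CPM in OE and 23.6, 23.0, 19.5 and 22.6 CPM in WT. It was about 1.98-fold higher in OE (0.99 ± 0.09, adjusted p 8.98e-12), and in KD against WT it had 0.63.

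Of 78 cell cycle genes, 4 were higher and 2 lower. CDKN1A (p21), an inhibitor of cyclin-dependent kinases, had 144, 151, 135 and 148 CPM in OE and 112, 120, 111 and 109 CPM in WT, without overlap (0.35 ± 0.06). CDK6 rose by 0.28, CCNG1 by 0.31, and cyclin D2 (CCND2) fell by 0.50. The proliferation genes MKI67 and TOP2A were not called (-0.03 and -0.04). CDK6 had -0.26 in KD against WT (adjusted p 0.00134). CCND2 was lower in KD too (-0.38 against WT, adjusted p 0.0032), and OE against KD gave -0.125 (0.426). CDKN1A and CCNG1 were not called in KD against WT. Among 42 genes of the BCL2 family, caspases and death domains, HRK, a promoter of apoptosis, was the one called (1.18 ± 0.25), at 4.86 to 6.63 CPM in OE and 1.91 to 3.68 CPM in WT. On the lower side of this list there were 0 by edgeR and DESeq2 and 2 at the unadjusted threshold.

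Steroid genes changed in both directions, with 5 higher and 4 lower of 41, and 3 higher without OE replicate 4 or WT replicate 3, 4 or 5. HSD3B2, the 3-beta-hydroxysteroid dehydrogenase of the adrenal, had 18.1, 18.9, 24.5 and 22.0 CPM in OE and 11.9, 7.08, 10.3 and 8.92 CPM in WT (1.13 ± 0.14, adjusted p 2.08e-08). SOAT1, which stores cholesterol as esters, had 813, 831, 811 and 799 CPM in OE and 745, 738, 710 and 714 CPM in WT, a small difference without overlap (0.16 ± 0.04). STAR, which carries cholesterol into mitochondria, had 454, 406, 432 and 444 CPM in OE and 535, 528, 510 and 506 CPM in WT, and fell by 0.26. CYP21A2, the 21-hydroxylase, had a log2 fold change of 0.24 (adjusted p 0.0058), which was lost without WT replicate 3 (0.21, adjusted p 0.0521), and it has a near-identical pseudogene. In KD against WT, SOAT1 had -0.29 (adjusted p 2.13e-08), STAR -0.61 (4.71e-15) and HSD3B2 0.99 (4.42e-07).

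A number of cholesterol synthesis genes rose. Of 35 cholesterol genes, 11 were higher and 1 lower, with a median of 0.09. INSIG1, the sterol sensor that retains SREBP, had 485, 516, 496 and 502 CPM in OE and 394, 400, 376 and 390 CPM in WT (0.36 ± 0.04, adjusted p 6.02e-10). HMGCS1, an early enzyme of the pathway, rose by 0.20, and the stearoyl-CoA desaturase SCD by 0.37, with 1630, 1660, 1641 and 1632 CPM in OE and 1267, 1345, 1237 and 1214 CPM in WT. SCARB1, the receptor that takes up cholesterol from HDL, was not called, with 2106 to 2200 CPM in OE and 2154 to 2233 CPM in WT (-0.04). KD against WT called 11 of the 35 higher as well, with a median of 0.09, and OE against KD called 4 higher and 5 lower. In KD against WT, INSIG1 had 0.09 (adjusted p 0.167), HMGCS1 0.12 (0.0211) and SCD 0.16 (0.000637). OE was higher than KD for INSIG1 (0.27, adjusted p 2.92e-07) and SCD (0.21, 3.66e-06). For HMGCS1 the OE against KD contrast gave 0.08 (adjusted p 0.123).

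Other lipid and detoxifying enzymes followed no single direction. Of 87 fatty acid and lipid droplet genes, 6 were higher and 5 lower, and ELOVL2, which lengthens polyunsaturated fatty acids, fell by 1.28. Aldehyde, keto, cytochrome P450 and conjugating enzymes had 5 higher and 4 lower of 102, with 3 higher without WT replicate 3, 8 higher without KD replicate 3, and 2 lower without OE or WT replicate 6. PTGS1, cyclooxygenase 1, rose by 0.55, at 19.4 to 21.3 CPM in OE and 12.0 to 16.6 CPM in WT. GSTA1, a glutathione transferase with near-identical paralogs, had 204, 207, 206 and 208 CPM in OE and 169, 165, 154 and 152 CPM in WT. Its groups did not overlap (0.36 ± 0.05, adjusted p 1.24e-07). TXNIP, an arrestin-like brake on glucose uptake, rose by 0.48, and hexokinase 2 (HK2) rose by 0.87 from a low level. In the amino acid list, with 4 higher and 1 lower of 52 (2 higher without OE replicate 3 or WT replicate 5), TRIB3 and SLC38A2, targets of ATF4, rose by 0.50 and 0.23, and ASS1, of arginine synthesis, fell by 0.68. ASS1 had 1.26 in KD against WT and was lower in OE than in KD by 1.95 (adjusted p 6.9e-20). TXNIP and TRIB3 were higher in KD too (0.545, adjusted p 1.82e-14, and 0.646, 1.33e-06, against WT). For them OE against KD gave -0.06 (adjusted p 0.383) and -0.15 (0.321). ELOVL2 was lower still in KD (-2.365 against WT, adjusted p 6.44e-09), and was higher in OE than in KD by 1.08 (0.00773). PTGS1, GSTA1, HK2 and SLC38A2 were not called in KD against WT.

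Glycosyltransferases and sulfotransferases had 6 higher and 6 lower of 96, with 2 higher without OE replicate 5. Sialyltransferases moved in opposite directions. ST3GAL5, which makes the ganglioside GM3, had 73.8, 67.0, 72.0 and 69.3 CPM in OE and 47.9, 45.8, 50.5 and 49.2 CPM in WT (0.54 ± 0.07, adjusted p 8.32e-08). ST8SIA4, which adds polysialic acid to NCAM1, had 37.0, 36.3, 30.6 and 32.9 CPM in OE and 47.9, 56.7, 47.9 and 55.8 CPM in WT, and fell by 0.61. ST3GAL5 had -0.35 in KD against WT (adjusted p 0.000596) and ST8SIA4 0.05 (0.796).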

How the data were processed

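The deposited table holds raw counts per Ensembl gene in 12 libraries (paired-end reads of 150 bases, per the labels). FastQC, HISAT2 1.03, Subread featureCounts, DESeq2 and GRCh38 appear in the submitters' processing notes, with no release of the annotation. Strandedness of the counting and treatment of multi-mapping reads are likewise not given, so genes with close paralogs, pseudogenes or overlapping partners are less certain. Of 60671 genes, 1 with blank counts was left out, and 3 lines that name no gene stayed out of library sizes. One of these 3 lines holds totals equal to the column sums.

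The test was edgeR 4.0.16 (R 4.3.3) with filterByExpr (minimum count 10, minimum total 15), TMM, and robust quasi-likelihood F tests. The fit took in all 12 libraries, which share one estimate of the spread (9 residual degrees of freedom). CPM uses TMM-adjusted library sizes, and standard errors follow from the log2 fold change and its F. Coordinates and gene types are from GENCODE release 29, promoters from RefSeq (GRCh38.p14). Alternatives were DESeq2 1.42.0, other scalings and filters, a fit of OE and WT alone, a replicate term and each library left out in turn. The scripts were tested on simulated counts.

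The lists and their members were chosen with earlier results of these data known. Named genes were taken from the largest changes, from each list's called members of lowest adjusted p or extreme fold change, and from each list's members with most counts, whether called or not. Members whose call depends on single libraries are mostly given as counts only. A few members and 1 list are not reported here. MYLK, FSCN1, CFL1, PFN1, ZYX, VIM, VCL, TPM3, MYL12A, ACTN1, CNN2 and CNN3 stand outside this rule and were named after their values were seen.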

Additional observations from a re-analysis of the deposited data

Results flagged for a closer look

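Among 312 groups of 4 libraries, 17 held 1 library far from the other 3 (its gap to the nearest, over the whole range, was above Dixon's 95% critical value), where chance gives about 1 in 20. In OE replicate 6, SPINT1 was high at 6.89 CPM (others 5.42 to 5.53), PTPRG high at 20.9 CPM (17.4 to 17.6), ELOVL2 high at 3.41 CPM (2.10 to 2.24) and IGFBP3 low at 18.4 CPM (21.8 to 22.3). OE replicate 5 was high for SEMA7A (91.5 CPM, others 84.1 to 85.4) and low for ACTA2 (4.90 CPM, others 6.87 to 7.14). OE replicate 4 was low for CYP21A2 (124 CPM, others 138 to 140), and OE replicate 3 was low for PTPRZ1 (26.1 CPM, others 31.1 to 31.7), MYL12A (95.7 CPM, others at 104) and PFN1 (306 CPM, others 310 to 311).

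On the WT side, replicate 4 was high for ITGA5 (58.0 CPM, others 50.4 to 51.3) and FOXO1 (16.6 CPM, others 16.1 to 16.2) and low for NOTCH2 (220 CPM, others 266 to 271). WT replicate 3 was high for BMP1 (24.9 CPM, others 23.0 to 23.3) and low for LPL (4.07 CPM, others 6.86 to 7.11). HRK was high in WT replicate 5 (3.68 CPM, others 1.91 to 2.18), and SPARC was low in WT replicate 6 (2336 CPM, others 2420 to 2433).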

How the results depend on the processing

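For OE against WT, leaving out 1 OE, WT or KD library gave 563 to 1064 called genes, 237 to 466 higher and 319 to 598 lower. The low end was without WT replicate 3 (563 genes) and the high end without KD replicate 3 (1064), which stands apart in the series. The KD fits were added after the data were seen. Fitting OE and WT alone called 1236 genes, 534 higher and 702 lower. The other settings called 735 to 890 genes. Genes called with at least a 2-fold difference numbered 44 to 73 when a library was left out and 45 to 78 under other settings. For OE against KD, 1660 to 2220 genes were called when a library was left out. With a replicate block, 735 genes were called (313 higher, 422 lower). Same-numbered OE and WT libraries did not deviate together (correlations of -0.01 to 0.02), and not every library correlated best with its own number. DLK1 kept its direction and its call in every setting tried (log2 fold change 0.23 to 0.29, adjusted p at most 0.0222). No gene named in the text changed direction under a call. Of 135 called genes named, ITGB1, CYP21A2, MYLK, ACTA2, ZYX, PFN1 and TAGLN2 lost their call without at least 1 library, MYLK also with library sizes alone and with no filter on low counts. CNN2, not called, was called lower in 11 settings (adjusted p 0.0289 to 0.0492). DESeq2 gave no adjusted p for CCK, SORCS2 and ENSG00000275216. List counts, mostly of a few genes, moved by over 1.5 times in 212 of 1748 cases. Depth limits genes with few counts, SORCS2, CCK, GAL and the non-coding gene on chromosome 13 among them.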
